A study of Mus musculus with 45 samples.

Results

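A set of 4 miRNAs known from red blood cells, mmu-mir-486b-5p, mmu-mir-451a, mmu-mir-144-3p and mmu-mir-144-5p, was followed in alveolar macrophages (AM) of mice exposed to filtered air (FA) or ozone (O3). The members were chosen by name, and make up 4 of the 476 miRNAs and 21 of the 1960 rows in the 6 deposited tables (a table for each genotype and sex). MiR-486b-5p and miR-451a were listed in all 6 tables, miR-144-5p in 5 and miR-144-3p in 4. A miRNA that a table does not list has no value there, which is not the same as a value of 0. Every listed miRNA had reads in at least 3 mice (tables of 6 or 7 mice) or 4 mice (tables of 8). A miRNA left out may thus have had reads in fewer mice.

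Small RNA of 45 mice (21 males and 24 females, 23 after FA and 22 after O3) was sequenced. The mice were 12 weeks old, were exposed for 3 h and had recovered for 18 h when AM were taken by lavage, in which the cells of the airspace are washed out together with anything else that is free in it, such as blood. All mice lack the mouse SP-A gene, on the C57BL/6J background. SP-A2 mice carry the human surfactant protein A transgene SP-A2 (1A0), co-ex mice carry SP-A1 and SP-A2 (6A2/1A0), and KO mice carry neither. There were 3 SP-A2 males after each exposure, 4 co-ex males after FA and 3 after O3, and 4 mice in each of the other 8 groups. These numbers follow the sample labels, whose total equals the 45 mice that the study states for miRNA analysis. The study's design text nevertheless gives 3 co-ex males for each exposure, and which mouse would be the additional one is not known. No mouse with its own SP-A was among them, so each genotype was compared with another genotype that lacks mouse SP-A. Each deposited value is a number of reads divided by a factor of the mouse, and whole reads were recovered from it. Between 137965 and 2884013 reads fell on the listed miRNAs of a mouse. Shares are given as percent of these listed reads or as RPM (reads per 1000000 listed reads), and the listed reads are not the whole library.

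MiR-451a and miR-144 are made from neighbouring hairpins of a single gene cluster that is switched on by GATA1, the main transcription factor of the red-cell lineage. MiR-451a is matured by the slicer Argonaute 2 without Dicer, and it protects young red cells from oxidative stress. MiR-486 lies within the gene of ankyrin 1, a protein of the red-cell membrane skeleton, and is also made in striated muscle. Mature red cells have lost their nucleus but keep these miRNAs, so they are commonly read as a sign of red cells or of their lysis in blood work.

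The mature sequences are shown because the seed (bases 2 to 8, in capitals) sets which messenger RNAs a miRNA binds and which miRNAs can stand in for each other. They were matched by name in RefSeq (GRCm38.p6) for 3 of the 4 members; mmu-mir-486b-5p was not matched.
mmu-mir-451a: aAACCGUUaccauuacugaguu
mmu-mir-144-3p: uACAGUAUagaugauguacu
mmu-mir-144-5p: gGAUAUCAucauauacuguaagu
None of the 3 shares its seed with another of the 1679 mature mouse miRNAs of the RefSeq table. The arms of miR-144 come from opposite sides of the same hairpin and are counted separately. MiR-144-5p lies on the plus strand of chromosome 11 at 78073010 to 78073032, miR-144-3p at 78073047 to 78073066 and miR-451a at 78073186 to 78073207. In GENCODE M21 (GRCm38), 99 bases separate the genes Mir144 and Mir451a. Mir3107, the gene of miR-486b, lies on the minus strand of chromosome 8 at 23142573 to 23142662, in an intron of Ank1 and over Mir486 (the gene of miR-486a), which is on the plus strand at 23142555 to 23142682. No arm of miR-486a was listed in any table, so the split of reads between these overlapping genes is uncertain, and values of miR-486b-5p are given as listed.

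MiR-486b-5p was one of the most abundant miRNAs of these samples. Its level differed widely between mice of the same group, a spread that was not compared with that of all miRNAs. It was detected in all 45 mice, with 1616 to 600745 reads. Its share of listed reads had a median of 3.38%. The lowest share was 0.128% (Wilson 95% interval 0.122 to 0.134) in SP-A2 male O3 replicate 2, and the highest was 36.9% (36.8 to 37.0) in KO female FA replicate 3. It was the most abundant listed miRNA in 9 mice and among the top 10 in 29, while its lowest rank was 64. It reached 1% of listed reads in 37 mice, 10% in 12 and 30% in 3. Counting error was small beside this spread, since the upper bound of the interval was at most 1.10 times the lower one in any mouse. Intervals cover counting error only, as the reads were amplified by PCR.

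In SP-A2 males, the shares of miR-486b-5p were 3.29%, 2.61% and 0.651% after FA. After O3 they were 0.228%, 0.128% and 1.55%. A pair of the 3 O3 mice lay below every FA mouse, and the third lay within the FA range. In SP-A2 females, the shares were 1.44%, 0.760%, 2.15% and 2.03% after FA. After O3 they were 14.2%, 0.359%, 12.1% and 5.07%. Here 3 O3 mice lay above all FA mice and the remaining one, replicate 2, lay below all of them.

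In co-ex males, the shares of miR-486b-5p were 3.09%, 7.52%, 36.3% and 3.38% after FA. After O3 they were 7.33%, 35.8% and 9.03%. Both exposures thus had a single mouse in which this miRNA took over a large part of the listed reads, and the groups overlapped. In co-ex females, the shares were 2.51%, 2.15%, 12.3% and 0.258% after FA. After O3 they were 6.89%, 8.07%, 3.84% and 3.38%. The O3 mice lay close together, above 3 of the FA mice and below FA replicate 3.

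In KO males, the shares of miR-486b-5p were 0.731%, 10.7%, 2.77% and 11.0% after FA. After O3 they were 1.56%, 8.90%, 2.60% and 11.0%. The groups covered almost the same range. In KO females, the shares were 7.21%, 10.8%, 36.9% and 14.3% after FA. After O3 they were 0.712%, 3.03%, 2.17% and 16.2%. Here 3 O3 mice lay below all FA mice, and O3 replicate 4 lay among them.

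**Figure D1:**
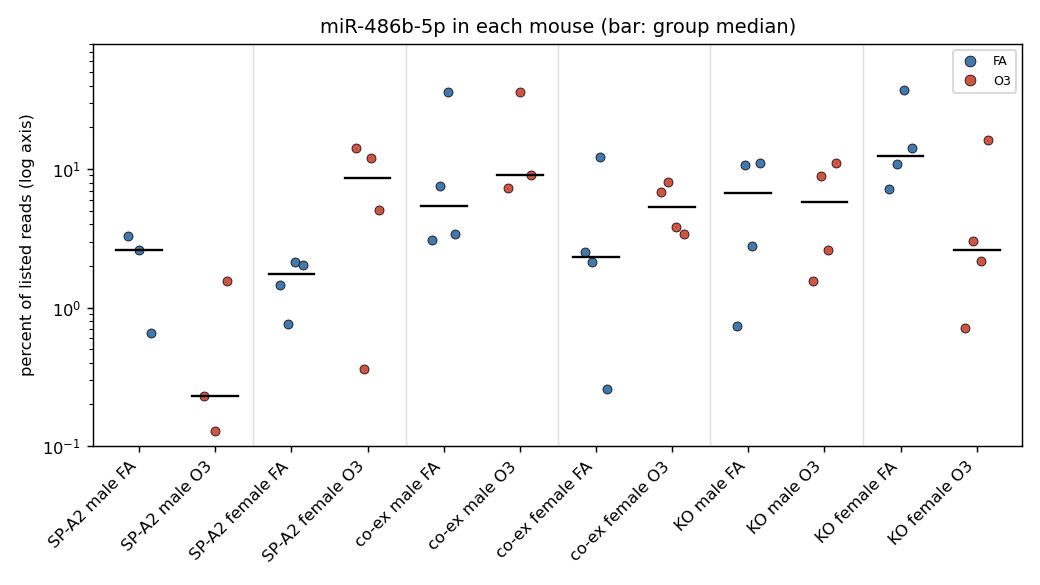
Share of miR-486b-5p in percent of listed reads (log axis) in each of the 45 mice, in 12 groups, with FA in blue, O3 in red and a bar at the group median. The points span 0.128% to 36.9%, and the points of FA and O3 overlap in each of the 6 pairs of groups.

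Ordered by the group median, miR-486b-5p was highest in KO females after FA (125295 RPM), followed by co-ex males after O3 (90346) and SP-A2 females after O3 (85882). It was lowest in SP-A2 males after O3 (2282 RPM), below SP-A2 females after FA (17393). Of the 11 neighbouring pairs in this order, 10 overlapped in their ranges. The pair that did not overlap was co-ex females after O3, between 33773 and 80714 RPM, and SP-A2 males after FA, between 6505 and 32911. The highest mouse of a group exceeded the lowest by between 2.39 times (co-ex females after O3) and 47.5 times (co-ex females after FA), with a median over the 12 groups of 9.39 times.

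MiR-451a, the hallmark miRNA of red cells, was present in nearly all mice but at a low level. It was found in 43 of the 45 mice, with at most 278 reads in a mouse. The median was 21.7 RPM, and the highest level was 187 in KO female FA replicate 3, the mouse that was also highest in miR-486b-5p. Its best rank among the listed miRNAs was 106. In the 43 mice with reads of both, miR-486b-5p had between 91.3 and 43927 times as many reads as miR-451a, with a median of 1290. The highest ratio rests on 1 read of miR-451a, and in the 39 mice with more than 3 reads of it the ratio lay between 91.3 and 36712. These ratios are of reads and not of molecules, since adapter ligation is not equally efficient for different miRNAs.

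In SP-A2 males, miR-451a was at 92.8, 42.0 and 14.3 RPM after FA. Following O3, the values were 25.0, 9.35 and 10.9. The ranges overlapped, with FA replicates 1 and 2 above every O3 mouse. In SP-A2 females it was at 19.1, 5.90, 34.6 and 20.8 after FA. The O3 mice had 154, 3.22, 90.7 and 6.53, that is, above the FA range in replicates 1 and 3, which also had the most miR-486b-5p, and within or below it in the others.

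In co-ex males, miR-451a was at 21.7, 57.2, 142 and 0.769 RPM after FA. With O3, the levels were 158, 141 and 13.0. The value of FA replicate 4 rests on 1 read, and the groups overlapped. Co-ex females after FA had the least, with 2.05, 0, 17.3 and 0 RPM, where the values other than that of replicate 3 rest on 1 read or none. The zeros allow up to 14.2 and 4.79 RPM (3 reads each). In the O3 mice it was at 48.2, 2.20, 4.60 and 27.4, above FA replicate 3 in only 2 of the 4 mice.

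In KO males, miR-451a was at 13.9, 52.7, 7.04 and 93.1 RPM after FA. After O3 it was at 21.5, 99.4, 63.9 and 94.1. O3 replicates 2 and 4 lay just above the FA range, and the others lay within it. In KO females it was at 15.1, 84.6, 187 and 23.8 after FA. Following O3, the values were 6.32, 34.9, 14.2 and 24.5. The FA mice with 84.6 and 187 lay above all O3 mice, and the others lay among them. All 11 neighbouring pairs in the order of group medians, from 141 RPM in co-ex males after O3 to 1.02 in co-ex females after FA, overlapped.

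MiR-144-3p, the arm that is usually the guide strand, was listed for 29 mice and had reads in 24 of them. In SP-A2 males it was at 872, 386 and 87.3 RPM after FA. The O3 mice had 42.2, 2.88 and 14.6, so that every O3 mouse lay below every FA mouse. The O3 values rest on 4 to 54 reads and the FA values on 61 to 404. In SP-A2 females it was at 6.82, 28.5, 99.7 and 41.6 after FA. With O3, the levels were 315, 0, 414 and 2.61, on both sides of the FA range, where the mouse without a read allows up to 1.93 RPM.

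In co-ex males, miR-144-3p was at 158 RPM in FA replicate 3, and no read was found in the other FA mice, which allows up to 21.7, 2.04 and 2.31 RPM in replicates 1, 2 and 4 (3 reads each). In the O3 mice it was at 49.5, 88.8 and 92.8. The O3 mice thus lay above the 3 FA mice without reads and below the fourth. In KO males it was at 0, 31.9, 71.3 and 80.5 after FA. After O3 it was at 87.8, 64.6, 268 and 758, and 3 of the 4 O3 mice lay above all FA mice.

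MiR-144-5p, the opposite arm, was listed for 37 mice and had reads in 29. In KO females it was at 164, 430, 173 and 317 RPM after FA. Following O3, the values were 27.8 in replicate 1, and no read was found in the other mice, which allows up to 2.90, 3.88 and 3.07 RPM. Every O3 mouse lay below every FA mouse, and the FA values rest on 124 to 402 reads. Each miRNA listed for KO females had reads in at least 4 mice, a minimum that the FA mice alone reached here. MiR-144-3p was not listed in this table.

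In SP-A2 males, miR-144-5p was at 758, 267 and 130 RPM after FA. The O3 mice had 192, 69.0 and 6.07, lower but with an overlap. In SP-A2 females it was at 111, 27.5, 134 and 28.6 after FA. With O3, the levels were 370, 1.29, 237 and 28.7, and the same mice were high as for miR-144-3p.

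In co-ex males, miR-144-5p was at 213 RPM in FA replicate 3 and without a read in the other FA mice. In the O3 mice it was at 1233 in replicate 1, 0 in replicate 2 and 1.45 in replicate 3. The value of 1233 was the highest of this arm in any mouse. In KO males it was at 28.1, 363, 140 and 475 after FA. After O3 it was at 60.5, 497, 171 and 0, within the FA range in 2 mice and outside it in the others.

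The arms did not keep a constant ratio. MiR-144-3p exceeded miR-144-5p in 11 of the 29 mice whose tables list both, 22 of them had reads of both arms and 3 had reads of neither. Co-ex male O3 replicate 2 had 149 reads of miR-144-3p and none of miR-144-5p, and KO male O3 replicate 4 had 137 and none. Co-ex male O3 replicate 1 had 87 reads of miR-144-3p and 2166 of miR-144-5p. KO male FA replicate 1 had none of miR-144-3p and 81 of miR-144-5p. Neighbouring pairs in the order of group medians overlapped for both arms, 7 of 7 for miR-144-3p and 9 of 9 for miR-144-5p.

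**Figure D2:**
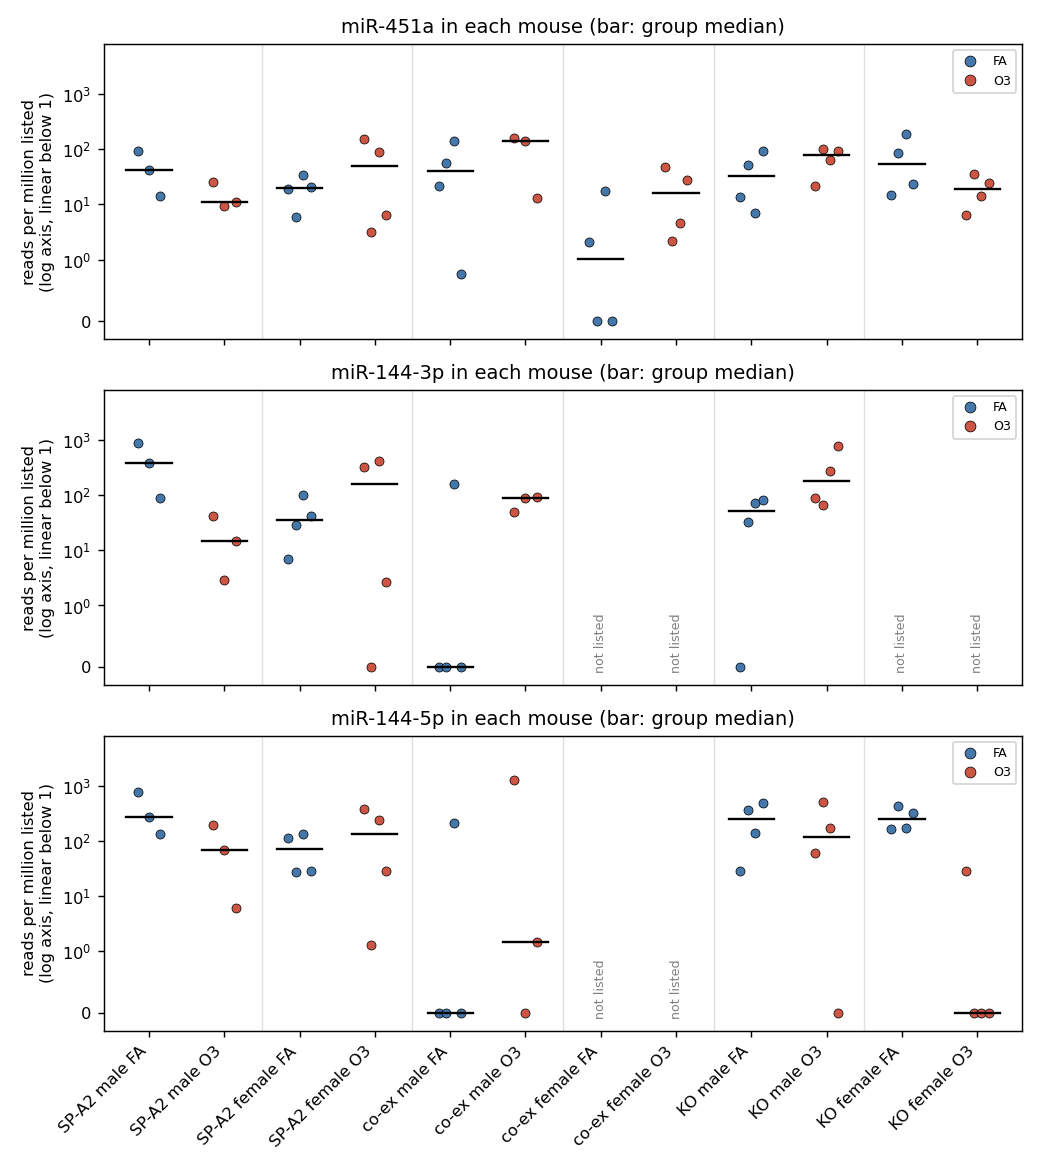
RPM of miR-451a, miR-144-3p and miR-144-5p in each mouse (log axis, linear below 1), in 12 groups, with FA in blue, O3 in red and a bar at the group median; groups whose table does not list the miRNA are marked. Points at 0 are mice without a read, and the only groups that separate are miR-144-3p in SP-A2 males, a table in which 20.8% of all miRNAs separate, and miR-144-5p in KO females, where 4.18% do.

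The first comparison was of O3 with FA within each genotype and sex. It was made with limma on log2(normalised value + 1), with the false discovery rate of 0.1 over all miRNAs of a table, and differences are given on this scale, which understates the change of low miRNAs. No member passed the test in any table: 0 of 21 tests were called, and 4 had an unadjusted p under 0.05, as had 230 of all 1960 (11.7%), from 3.42% in co-ex males and 7.67% in KO females to 17.6% in SP-A2 males. The median difference over the members of a table lay farthest from that over all its miRNAs in KO females (-2.33 against 0.45) and SP-A2 males (-2.37 against 0.17). Over all miRNAs listed, the share called was 5.18% in KO males, 1.38% in co-ex females, 1.07% in SP-A2 females and 0.67% in SP-A2 males, and it was 0% in the tables of KO females and co-ex males.

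For miR-486b-5p, the difference O3 minus FA was -2.33 (SE 0.796, adjusted p = 0.502) for KO females and -2.19 (SE 0.835, adjusted p = 0.214) for SP-A2 males. The KO males gave 0.16 (adjusted p = 0.931) and the SP-A2 females 1.67 (adjusted p = 0.531). For co-ex mice it was 1.63 (females, adjusted p = 0.474) and 1.01 (males, adjusted p = 0.941). In SP-A2 females DESeq2 gave 2.44 (adjusted p = 0.0446), where it called 26 of 373 miRNAs. The sign thus differed between tables, 4 above 0 and 2 below, and the value of KO males turned to the other sign in edgeR (-0.59) and DESeq2 (-0.39). A single mouse decided the call in several tables. Without SP-A2 female O3 replicate 2 the difference in SP-A2 females was 2.91 (limma, adjusted p = 0.0113), and without SP-A2 male O3 replicate 3 that in SP-A2 males was -3.13 (adjusted p = 0.0358). Without KO female O3 replicate 4 the difference in KO females was -3.23 (adjusted p = 0.0502), and without co-ex female FA replicate 3 that in co-ex females was 2.57 (adjusted p = 0.0637). More miRNAs in general were called without some of these mice: 26 of 373 (6.97%) without that SP-A2 female, 40 of 448 (8.93%) without that SP-A2 male and 13 of 290 (4.48%) without that co-ex female. Without the KO female, 1 of 287 was called, which was miR-486b-5p itself.

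For miR-451a, the difference lay between -1.55 (KO females) and 2.24 (co-ex females), with adjusted p between 0.573 and 0.941. It had the sign of that of miR-486b-5p in each of the 6 tables, below 0 in SP-A2 males and KO females and above 0 in the others. The sign in SP-A2 females turned without O3 replicate 1 (-0.22).

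For miR-144-3p, the difference was -4.36 (SE 1.10, adjusted p = 0.118) in SP-A2 males, the smallest adjusted p of any member. The KO males gave 3.12 (adjusted p = 0.380), the co-ex males 4.44 (adjusted p = 0.881) and the SP-A2 females 0.02 (adjusted p = 0.995), of which the last took either sign under other settings. The difference in SP-A2 males passed the threshold in DESeq2 (-4.345, adjusted p = 0.000441), and in limma without O3 replicate 1 (-5.23, adjusted p = 0.0536) or without O3 replicate 3 (-4.34, adjusted p = 0.0925). These settings called 54 (12.1%), 29 (6.47%) and 40 (8.93%) of the 448 miRNAs of the table, against 3 with all mice in limma.

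For miR-144-5p, the difference was -6.57 (SE 1.94, adjusted p = 0.335) in KO females and -2.56 (adjusted p = 0.298) in SP-A2 males. The KO males gave -1.66 (adjusted p = 0.669), the co-ex males 1.81 (adjusted p = 0.941) and the SP-A2 females -0.06 (adjusted p = 0.991), of which the last took either sign under other settings and that of KO males turned to 0.18 without O3 replicate 4. The value in co-ex males turned to -1.54 without O3 replicate 1, the mouse with 2166 reads of this arm.

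**Figure D3:**
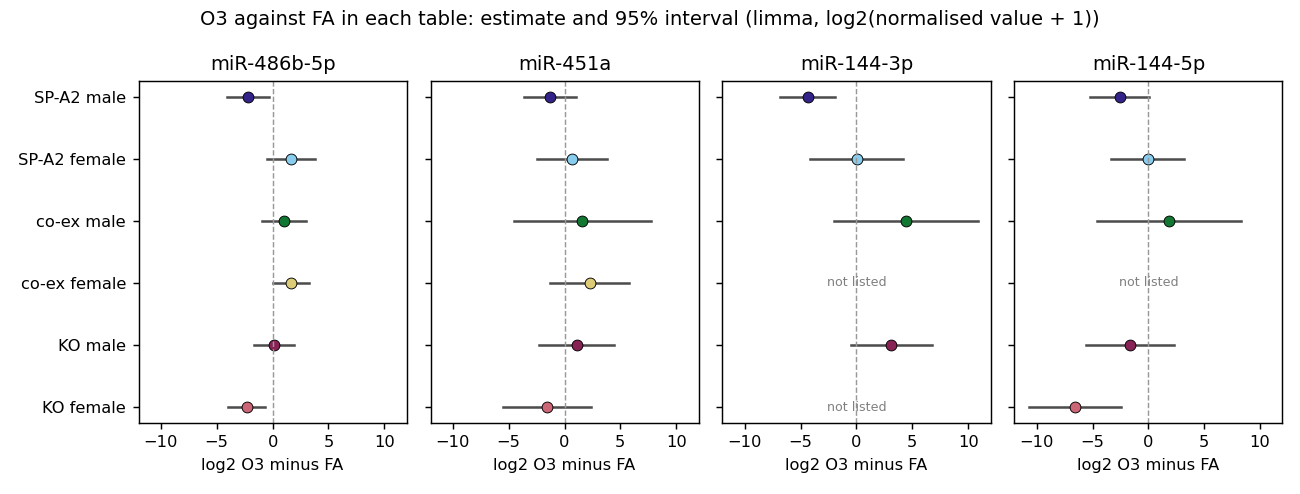
Difference O3 minus FA of each member on the log2(normalised value + 1) scale, with its 95% interval from limma, in the 6 tables. The intervals that exclude 0 are those of miR-486b-5p in SP-A2 males and KO females, of miR-144-3p in SP-A2 males and of miR-144-5p in KO females, and none passed the false discovery rate of 0.1.

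The share of listed reads, which needs no size factor, was compared by two-sided exact permutation tests of the difference in mean log2(RPM + 1). Of 21 tests, 1 gave p under 0.05, that of miR-144-5p in KO females (-6.76, exact p = 0.0286, which is the lowest possible with 4 mice a group, Benjamini-Hochberg adjusted p = 0.382 over the 21). Every miRNA listed for KO females had reads in at least 4 mice. The 4 FA mice alone reached that minimum for miR-144-5p, with reads in only 1 O3 mouse, so this test is not independent of the listing. For miR-144-3p in SP-A2 males the difference was -4.49 and the exact p was 0.100, the lowest possible with 3 mice a group. These were the 2 cases in which the groups did not overlap. Over all listed miRNAs, the FA and O3 mice did not overlap for 20.8% in SP-A2 males and for 4.18% in KO females, the tables of these cases. The share was 10.4% for KO males, 7.59% for co-ex females, 6.84% for co-ex males and 6.17% for SP-A2 females. Shares from different numbers of mice are not alike, since groups of 3 mice separate more readily than groups of 4. An exact permutation p under 0.05 was found for the same share of miRNAs in the tables with 4 mice a group, for 1.71% in co-ex males and for 0% in SP-A2 males, where it cannot be reached. A member that separated in SP-A2 males was thus 1 of 93 such miRNAs of 448, and the member in KO females 1 of 12 of 287. Over all tables that list the miRNA, with exposure permuted within tables (100000 resamples), the mean difference was -0.11 for miR-486b-5p (permutation p = 0.830), 0.41 for miR-451a (p = 0.454, permutation) and 0.70 for miR-144-3p (p = 0.551, permutation). That of miR-144-5p was -1.92 (permutation p = 0.0761, adjusted over the 4 members 0.304), below 0 in 4 of 5 tables. With each of the 37 mice left out in turn, this difference lay between -2.56 and -1.53, with unadjusted permutation p between 0.00830 and 0.196. That p was under 0.05 in 1 of the 37 cases, without co-ex male O3 replicate 1 (-2.56, unadjusted permutation p = 0.00830).

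Whether the response to O3 differed between the sexes of a genotype or between genotypes of a sex was tested as an interaction over the miRNAs that both tables list. None of 28 tests on members in 9 comparisons was called by limma, and 6 had an unadjusted p under 0.05, as had 126 of all 2426 tests (5.19%). The share of all miRNAs called was 0.282% for SP-A2 males against SP-A2 females, 0.312% for SP-A2 males against KO males and 0% in the other 7 comparisons. The smallest adjusted p was that of miR-144-3p, whose response in SP-A2 males minus that in KO males was -7.48 (SE 2.19, adjusted p = 0.239). For miR-486b-5p, the response of SP-A2 males minus that of SP-A2 females was -3.85 (adjusted p = 0.698). Without SP-A2 female O3 replicate 2 it was -5.10 (adjusted p = 0.0296).

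Between SP-A2 females and KO females the responses of miR-486b-5p differed by 4.00 (adjusted p = 0.775), and without SP-A2 female O3 replicate 2 by 5.24 (limma, adjusted p = 0.0867). Those of miR-144-5p differed by 6.51 between the same tables (adjusted p = 0.775). Between co-ex females and KO females the responses of miR-486b-5p differed by 3.95 (adjusted p = 0.916). These comparisons share the KO females, in which 3 of the 4 O3 mice lay below all FA mice in miR-486b-5p, and all 4 did in miR-144-5p.

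The levels after the same exposure were compared between tables on recovered reads with edgeR (TMM, quasi-likelihood test, false discovery rate of 0.1 over the miRNAs of both tables). Of 56 tests on members in 18 comparisons, 3 were called, all after FA. MiR-486b-5p was lower in SP-A2 females than in KO females (log2 difference -4.07, adjusted p = 0.0296), where 0.712% of all miRNAs were called. Its shares of listed reads were 0.760% to 2.15% against 7.21% to 36.9%. MiR-486b-5p was also lower in SP-A2 males than in co-ex males (-3.30, adjusted p = 0.080), in a comparison in which 14.1% of all miRNAs were called. MiR-144-3p was higher in SP-A2 males than in SP-A2 females (3.44, adjusted p = 0.0580), where 4.24% were called. The share called was 2.81% for SP-A2 males against KO males after FA, 0.353% for SP-A2 females against co-ex females after FA and 0% in the other 13 comparisons.

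Each of these 3 calls was lost when some single mouse was left out. The adjusted p of the difference between SP-A2 and KO females rose to between 0.104 and 0.181 without SP-A2 female FA replicate 1, 2 or 3, with the log2 difference between -4.30 and -2.90 over all mice left out. That between SP-A2 and co-ex males shrank to -1.26 (edgeR, adjusted p = 0.172) without co-ex male FA replicate 3, and missed the threshold without any of 5 other mice. That of miR-144-3p between SP-A2 males and females was 2.63 (edgeR, adjusted p = 0.423) without SP-A2 male FA replicate 1 and also missed the threshold without SP-A2 male FA replicate 2 or SP-A2 female FA replicate 1. After O3, the log2 difference of miR-486b-5p between SP-A2 males and co-ex males was -5.61, with an adjusted p of 0.105. The lowest adjusted p of miR-451a in its 18 comparisons of levels was 0.295, and that of miR-144-5p was 0.130. The tables are at the same time the genotypes and sexes, so a batch of a table and its genotype or sex cannot be told apart.

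Within groups, miR-486b-5p, miR-451a and miR-144-3p went up and down together from mouse to mouse. Values of log2(normalised value + 1) were centred on the mean of each group, and p came from 100000 permutations within groups, with the Benjamini-Hochberg adjustment over the 6 pairs. Across 45 mice, miR-486b-5p and miR-451a had Pearson's r = 0.709 (adjusted permutation p = 0.000180) and Spearman's rho = 0.688 (adjusted permutation p = 0.000120). Without the 2 mice farthest from the median of miR-486b-5p, r was 0.650. Within single tables, r was above 0 in 6 of 6 and lay between 0.342 (SP-A2 males) and 0.867 (SP-A2 females).

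For miR-486b-5p and miR-144-3p, r was 0.759 over 29 mice (adjusted permutation p = 0.00195), rho was 0.693 (adjusted permutation p = 0.00273) and r was 0.639 without the 2 farthest mice. Within tables it lay between 0.533 (SP-A2 males) and 0.867 (co-ex males). MiR-486b-5p and miR-144-5p were less close over 37 mice, with r = 0.262 (adjusted permutation p = 0.207), rho = 0.244 (adjusted permutation p = 0.215) and r = 0.014 without the 2 farthest mice. Within tables this r ranged from -0.416 (KO females) to 0.926 (SP-A2 females).

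The pairs within the cluster on chromosome 11 lay between. For miR-451a and miR-144-3p, r was 0.669 over 29 mice (adjusted permutation p = 0.0251) and rho was 0.650 (adjusted permutation p = 0.0108). For miR-451a and miR-144-5p, r was 0.508 over 37 mice (adjusted permutation p = 0.0251) and rho was 0.505 (adjusted permutation p = 0.0139). For the arms of miR-144, r was 0.50 over 29 mice (adjusted permutation p = 0.0251) and rho was 0.506 (adjusted permutation p = 0.0188). Without the 2 farthest mice, r of these pairs was 0.606, 0.419 and 0.280, and none kept an adjusted p under 0.05, so these relations rest in part on those mice. Within tables, r lay between 0.268 (KO males) and 0.915 for miR-451a with miR-144-3p, between -0.161 (KO females) and 0.920 for miR-451a with miR-144-5p, and between -0.003 (KO males) and 0.844 for the arms of miR-144, with SP-A2 females highest each time. The values of a table were normalised together, and whether its mice shared other steps of processing is not given by the labels. The factor of a mouse scales all its normalised values together, whereas in shares a member with many reads lowers what is left for the others. With RPM in place of normalised values, rho was 0.630 for miR-486b-5p with miR-451a and 0.688 for miR-486b-5p with miR-144-3p. For miR-451a with miR-144-3p it was 0.597.

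**Figure D4:**
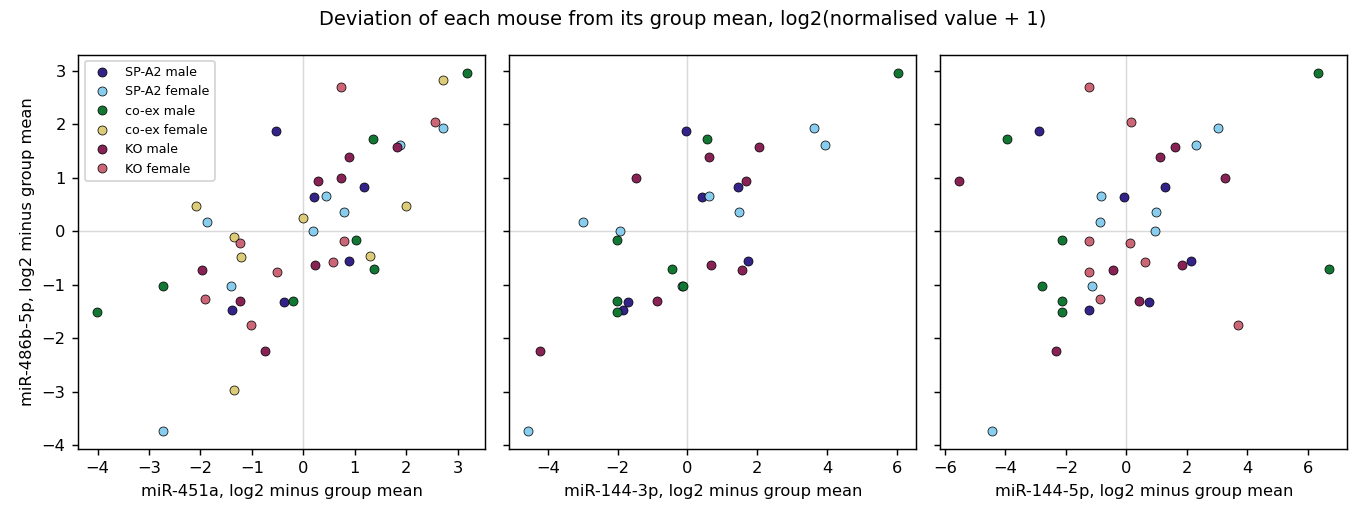
Deviation of miR-486b-5p from its group mean (vertical axis) against that of miR-451a, miR-144-3p and miR-144-5p (horizontal axes) on the log2(normalised value + 1) scale, with 1 point for each mouse and a colour for each table. The points rise together for miR-451a (r = 0.709) and miR-144-3p (r = 0.759) and scatter for miR-144-5p (r = 0.262).

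Other miRNAs were ordered by how closely they followed each member, as Spearman's rho of the same centred values, as a description. Among 205 miRNAs listed in all tables, those closest to miR-486b-5p over 45 mice were miR-92a-3p (rho = 0.792), a member of an oncogenic miRNA cluster and abundant in red cells, miR-451a (0.688) and miR-15b-5p (0.646). The median rho over the 205 was 0.00. Closest to miR-144-3p over 29 mice were miR-486b-5p (0.693), miR-451a (0.650) and miR-92a-3p (0.619), of 218 candidates. For miR-451a, let-7c-5p (0.722), miR-486b-5p (0.688) and let-7b-5p (0.672) came first. None of the other members was among the 3 closest to miR-144-5p, which were miR-199b-3p (0.581), miR-200a-3p (0.551) and miR-30a-5p (0.533) of 212 candidates over 37 mice. MiR-200a-3p is a marker of epithelial cells.

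The sequences of miR-92a-3p and miR-15b-5p, which were close to miR-486b-5p, and of a red-cell miRNA with the seed of each are shown to set their seeds beside those of the members.
mmu-mir-92a-3p: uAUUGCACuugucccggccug
mmu-mir-25-3p: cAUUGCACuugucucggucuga
mmu-mir-15b-5p: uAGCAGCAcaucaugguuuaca
mmu-mir-16-5p: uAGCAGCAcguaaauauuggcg
MiR-92a-3p and miR-25-3p share the seed AUUGCAC, and miR-15b-5p and miR-16-5p share AGCAGCA, but no seed of these is that of miR-451a or of an arm of miR-144. Besides miR-92a-3p and miR-15b-5p, 8 miRNAs with these seeds were listed in 3 or more tables, and their rho with miR-486b-5p lay between -0.494 (miR-195a-5p, 22 mice) and 0.256 (miR-25-3p, 45 mice), with -0.080 for miR-16-5p.

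Of 10 further miRNAs known from red cells, 7 were listed in at least 1 table and 5 in all. None of their 36 estimates of O3 minus FA passed the test in any table, and the median of the listed ones lay between -0.59 in KO males and 0.44 in SP-A2 females, where the medians over all listed miRNAs were -0.29 and 0.18. In KO females the median was -0.50 against 0.45 over all miRNAs, with 5 of 6 below 0. In SP-A2 males 5 of 5 were above 0, with a median of 0.38 against 0.17, while all 4 members were below 0 there. MiR-92a-3p was found in all mice at 3038 to 44292 RPM and was highest in KO female FA replicate 3, which was also the mouse highest in miR-486b-5p, miR-451a and miR-15b-5p (12579). Its difference was -1.05 in KO females (adjusted p = 0.679) and 0.78 in SP-A2 females (adjusted p = 0.531), where it had the sign of miR-486b-5p, but it had the opposite sign in co-ex females (-0.16, adjusted p = 0.940) and in SP-A2 males (0.10, adjusted p = 0.965).

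MiR-16-5p, abundant in red cells as in many other cells, ranged from 1102 to 27957 RPM, and was highest in SP-A2 male O3 replicate 2, the mouse lowest in miR-486b-5p. MiR-25-3p ranged from 264 to 3563 and miR-185-5p from 0 to 1575. MiR-486b-3p, the other arm of the hairpin of miR-486b, was listed in 5 tables and had reads in 21 of 39 mice, at most 263 RPM, again in KO female FA replicate 3. MiR-451b, read from the strand opposite to miR-451a, was listed only in KO males, with at most 3 reads in a mouse.

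MiR-23a-3p, which red-cell lysis is known to leave nearly unchanged in plasma, made up 0.768% to 5.10% of listed reads. It was lowest in KO female FA replicate 3, where the reads of miR-486b-5p leave a smaller share for other miRNAs. For the centred values of miR-23a-3p, rho with those of miR-486b-5p was -0.612. Its difference between O3 and FA lay between -0.40 and 0.33 in the 6 tables and was not called.

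Striated muscle also makes miR-486, so its miRNAs were read beside the members. Of 7, 2 were listed: miR-1a-3p in 4 tables and miR-133a-3p in 2. They were high in single mice, miR-1a-3p at 47500 RPM in KO male O3 replicate 1 and at 21916 in SP-A2 female O3 replicate 4. That SP-A2 female also held the highest level of miR-133a-3p (11898). These mice were not the highest of their groups in miR-486b-5p, with 1.56% and 5.07% of listed reads. In SP-A2 males, the muscle miRNAs had lower means after O3 like the members, by -3.77 for miR-1a-3p (adjusted p = 0.224) and -3.63 for miR-133a-3p (adjusted p = 0.184), and their part in the values of miR-486b-5p was not tested.

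The labelled cell type was read from 6 macrophage and myeloid miRNAs, all listed in every table, which summed to between 0.369% and 19.2% of listed reads. The lowest sum was in KO female FA replicate 3, the mouse with the most miR-486b-5p. There miR-486b-5p took 36.9% of listed reads, which leaves a smaller share for all other miRNAs. Spearman's coefficient of the centred values with those of miR-486b-5p was below 0 for all 6, where the median over 205 miRNAs was 0.00. In SP-A2 males the sum of the 6 was 17.8% to 19.2% after FA and 5.45% to 16.2% after O3. The sums of FA and O3 mice overlapped in the other tables. In SP-A2 males the FA and O3 mice did not overlap for 20.8% of all listed miRNAs, against 4.18% to 10.4% for the other genotypes and sexes. Those had more mice, and groups of 3 separate more readily than groups of 4 (lowest exact permutation p 0.100 against 0.0286). Whether the sum separated beyond the share of all miRNAs was not tested. Of the 36 estimates of O3 minus FA for the 6 miRNAs, 17 were above 0. The median lay between -0.92 in SP-A2 females and 1.03 in KO females. The tests called 2, both below 0, miR-142a-3p in SP-A2 males (-3.28, adjusted p = 0.00435) and miR-155-5p in SP-A2 females (-2.42, adjusted p = 0.0454). Among the 6 estimates of SP-A2 males, 3 were above 0, with a median of -0.10.

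Markers of other lung cells were read in the same way. The 10 epithelial miRNAs summed to 0.0975% to 4.08% of listed reads, and 49 of their 56 estimates were above 0, with medians of 0.48 to 3.90 in the 6 tables where those over all miRNAs were -0.29 to 0.64. Of these, miR-34b-3p in KO males passed the test (3.18, adjusted p = 0.0538). The 3 listed mesenchymal miRNAs had 18 of 18 estimates above 0, and miR-143-3p rose in co-ex females (5.63, adjusted p = 0.0225) and KO males (3.62, adjusted p = 0.0135). The endothelial miR-126a-3p rose in SP-A2 males (4.78, adjusted p = 0.0576), in which the members had lower means. All 4 endothelial estimates were above 0. Those in SP-A2 females (5.37) and KO males (6.09) were not called, and there 3 of 4 members were above 0. The endothelial sum never exceeded 0.107% of listed reads. The 2 lymphoid miRNAs were not called in any table and summed to 0.126% to 1.87%. The part of these cells, and of red cells themselves, in the levels of the members was not tested, and in bulk RNA fewer cells of a type and less RNA per cell cannot be told apart.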

How the data were processed

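Small RNA of alveolar macrophages was sequenced by the study with the NEXTflex Small RNA kit and an Illumina HiSeq instrument, and CASAVA and edgeR are named in the submitters' processing notes. The aligner, miRNA reference and genome build are not given in the sources used here. The authors deposited a normalised signal for each miRNA and mouse, that is, reads divided by a factor of the mouse within the table, beside p-values and q-values of their own comparison, which were not used. Whole reads were recovered for 100% of the values (within 0.01 of a read) with a step for each mouse, whose smallest value was 1 read in all 45 mice. The step rests on 14 to 158 values of at most 20 reads a mouse, and on 100 or more in only 8 mice. The listed reads per mouse set the precision. A mouse was a replicate, as the labels give it, and no libraries of a group were duplicates.

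Limma 3.58.1 (eBayes with trend), edgeR 4.0.16, DESeq2 1.42.0 (R 4.3.3) and scipy 1.17.1 were used, after a check on simulated data. Members, lists and tests were chosen with earlier results of these data known. The miRNAs named are the members, all listed red-cell and muscle miRNAs, the 3 closest to each member, and other list members that were called. Alternatives were pseudocounts of 0.1 and 10, a filter (at least 10 in as many mice as the smaller group), a false discovery rate of 0.05, edgeR, DESeq2, scaling without miR-486b-5p, other normalisation factors and denominators, a replicate block and each mouse left out. MiR-23a-3p, the red-cell lysis reference, was named in addition to this rule, with its values known.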

Additional observations from a re-analysis of the deposited data

Results flagged for a closer look

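In 30 sets of 4 mice, the highest or lowest mouse was compared with the others by Dixon's criterion, and 6 sets passed. Chance passes about 1 of 20 sets of normally distributed values, which RPM with many zeros are not, and over all listed miRNAs 503 of 2781 sets passed (18.1%), 152 of them with reads in a single mouse. The share of the members is close to that of all miRNAs, and the 6 sets are given as values. Co-ex male FA replicate 3 stood far above the other FA mice of its table in 3 members. It had 362879 RPM (reads per 1000000 listed reads) of miR-486b-5p against 30950 to 75184, and it was the only one with reads of miR-144-3p (158 RPM) and of miR-144-5p (213 RPM). Co-ex female FA replicate 3 had 17.3 RPM of miR-451a, where the others had 0 to 2.05. KO female O3 replicate 4 had 162181 RPM of miR-486b-5p against 7118 to 30297. KO female O3 replicate 1 was the only O3 mouse of its table with reads of miR-144-5p, at 27.8 RPM.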

How the results depend on the processing

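Of 1773 alternatives to 136 results, 1726 stayed on the same side of the threshold, 47 did not, and none reversed a called value. The sign turned in 99 with neither value past the threshold, among them miR-144-3p (-0.86 with a pseudocount of 0.1) and miR-144-5p (1.24 with edgeR) in SP-A2 females. For the 47, the cause was not tested.

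Of differences between O3 and FA, DESeq2 on recovered reads called miR-486b-5p in SP-A2 females (2.44) and miR-144-3p in SP-A2 males (-4.345). Over all miRNAs, DESeq2 called 41 in KO males, 54 in SP-A2 males, 14 in co-ex females, 26 in SP-A2 females, 2 in KO females and 5 in co-ex males, where limma called 17, 3, 4, 4, 0 and 0 and edgeR 16, 5, 0, 2, 0 and 0. Unadjusted p under 0.05 was found by limma for 8 miRNAs in co-ex males and 22 in KO females. With the replicate number as a block, miR-486b-5p in KO females passed the threshold at the same value (-2.33, adjusted p = 0.0102), and in the same order of tables the calls were 24, 1, 5, 0, 2 and 0. Deviations of FA and O3 mice with the same number correlated at -0.138 to 0.271. Mice with different numbers were not compared in this way, so whether the numbers pair the mice was not tested.

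For the level of miR-486b-5p in SP-A2 against co-ex males, median-ratio factors gave -3.20 and a filter on low reads -3.23 after FA (no longer called), and -5.56 and -5.555 after O3 (called). Without the farthest 2 mice, r was 0.606 for miR-451a with miR-144-3p, 0.419 for miR-451a with miR-144-5p and 0.280 for the arms of miR-144, with adjusted permutation p of 0.0844, 0.0970 and 0.237.

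With each mouse left out in turn, the difference of miR-486b-5p between O3 and FA lay between -3.225 and -1.64 (KO females), 1.02 and 2.91 (SP-A2 females), -3.13 and -1.52 (SP-A2 males) or 0.632 and 2.57 (co-ex females), and that of miR-144-3p in SP-A2 males between -5.28 and -3.51. The difference in response of miR-486b-5p lay between -5.10 and -3.19 (SP-A2 males against females) and between 3.31 and 5.24 (SP-A2 against KO females), and that of miR-144-3p in SP-A2 against co-ex males between -10.8 and -7.95 (called without co-ex male FA replicate 3). Levels of miR-486b-5p lay between -2.07 and -1.24 after FA (called without KO male FA replicate 1) and -4.50 and -2.51 after O3 (called without SP-A2 male O3 replicate 3) in SP-A2 against KO males, and in SP-A2 against co-ex males between -3.81 and -1.26 (FA) and between -6.96 and -4.12 (O3). The O3 comparison was called without SP-A2 male O3 replicate 3 or co-ex male O3 replicate 1 or 3. After FA they lay between -4.30 and -2.90 in SP-A2 against KO females and between -4.10 and -1.45 in co-ex against KO females (called without co-ex female FA replicate 3). After FA, miR-144-3p lay between 2.63 and 3.97 in SP-A2 males against females and between 1.69 and 11.3 in SP-A2 against co-ex males, and miR-144-5p there between 1.05 and 11.1. Both were called without co-ex male FA replicate 3, which leaves co-ex males without a read, so that these log2 values depend on the prior count.

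Shares of miR-486b-5p differed by -3.09 to -1.59 in KO females, 0.923 to 2.69 in SP-A2 females and 0.3585 to 2.215 in the co-ex females, those of miR-144-5p by -7.97 to -6.35 in KO females and by -2.56 to -1.53 over all tables. In KO females, 3 mice against 4 allow no exact p under 0.0286, and leaving out an FA mouse gave 0.0571. Members with few reads (miR-451a, miR-144) were limited by depth, since 3 reads correspond to 1.04 to 21.7 RPM, and the groups of 3 and 4 mice limited the tests of all members.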
